A study of Arabidopsis thaliana with 8 samples.

Results

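The comparison described here is the difference between the selenate responses of the 2 organs of Arabidopsis thaliana: the change in shoots minus the change in roots. It used all 8 of the 8 arrays in the study, taken into 4 groups of 2 by their titles: control roots, roots grown with selenate, control shoots and shoots grown with selenate. All plants were WS plants, with no mutation or transgene named. They grew for 10 days in vertical culture on 0.5 MS medium, and the medium of the treated groups held 40 µM selenate. The description fields of shoot samples speak of roots, while their titles and source names say shoots, and the titles were followed. Whether a group's arrays stem from separate cultures is not said, so a p-value here covers only the variation between 2 arrays, which may be technical.

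Selenate is an oxyanion of selenium that resembles sulfate closely enough to enter root cells through sulfate transporters. ATP sulfurylase activates it as it activates sulfate, and the selenium can pass into the amino acids selenocysteine and selenomethionine. It competes with sulfate for uptake, and in Arabidopsis it is known to turn on genes that mark sulfur deficiency, together with stress and jasmonate-related genes. Roots meet the anion first and shoots receive what is carried up, so the organs need not respond alike.

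Of 22746 probe sets other than array controls, 16053 had a signal of at least 100 on at least 2 arrays and were tested. The probe set just inside this limit had a second highest signal of 100 and the one just outside had 99.9. Changes were taken on the log2(signal + 25) scale, which understates the change of weakly expressed genes, and a probe set is called where limma gives an adjusted p below 0.05. By this test the response differed between organs for 594 probe sets, 3.70% of those tested. The shoot change lay above the root change for 228 (1.42%) and below it for 366 (2.28%), and 2498 had an unadjusted p under 0.05. For all 594 the 4 possible differences between a selenate and a control array in one organ lay wholly beyond the 4 of the other, which held for 30.4% of all probe sets tested, called or not. Over all tested probe sets the median change was -0.021 in roots and -0.016 in shoots, and the median difference was 0.0083.

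Facts of the whole series bear on these values. Shoot replicates differed more than root replicates, with a standard deviation of the log2 difference between replicates of 0.511 and 0.409 in control and selenate shoots against 0.264 and 0.277 in control and selenate roots. The ratio of 3' to 5' signal of the GAPDH control, a sign of RNA quality, was between 0.783 and 0.868 on root arrays. On shoot control 1, shoot control 2, shoot selenate 1 and shoot selenate 2 it was 2.03, 10.4, 7.34 and 2.95. The same ratio of the actin control was between 4.74 and 9.07 on root arrays. On the shoot arrays, in the same order, it was 21.2, 55.9, 51.7 and 22.9. The 8 listed green-tissue genes that could be found summed to a signal of at least 156629 on every shoot array and at most 2827 on any root array, and the 3 root genes found summed to between 17806 and 19595 on root arrays and between 5713 and 9477 on shoot arrays. Each array thus had the markers of the organ in its title. RNA quality moved with organ, and its part in the difference between organs was not tested. Without shoot control 2 and shoot selenate 1, the arrays with the highest ratios, 1 array per shoot group is left, with GAPDH ratios of 2.03 and 2.95. All 594 differences then kept their sign. This was fixed in advance, because the 4 array differences of one organ lay wholly beyond those of the other for each.

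**Figure D1:**
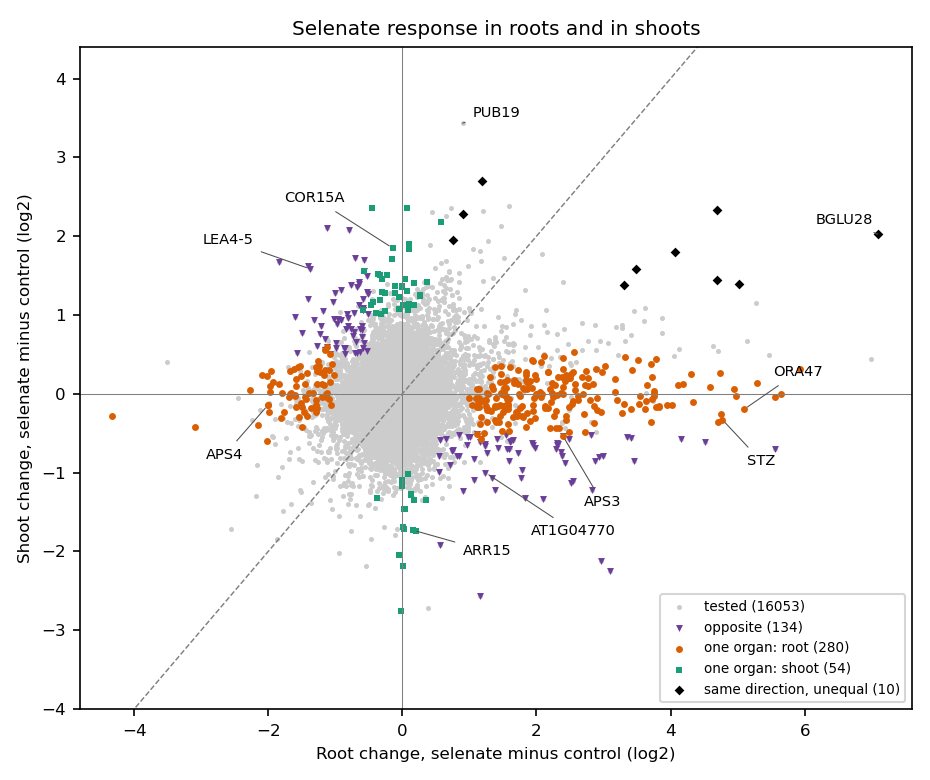
Change with selenate in roots (horizontal axis) and shoots (vertical axis), log2 of signal plus 25, for 16053 probe sets, with the dashed line marking equal changes. Coloured points are called differences sorted by class (the 124 unsorted ones stay grey), with 8 probe sets in both the opposite class and a one-organ class; the 280 root-only points spread along the horizontal axis and the 54 shoot-only points along the vertical one.

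The called differences were sorted by what each organ did. A response was counted as root-only where the difference was called, the root change was called and at least 2-fold (1 on the log2 scale), and the 95% interval of the shoot change lay between -1 and 1; shoot-only responses were the mirror image. By this rule 280 probe sets (1.74% of those tested) were root-only, 209 rising and 71 falling, and 54 (0.336%) were shoot-only, 37 rising and 17 falling. Changes of opposite sign, each at least 0.5 on the log2 scale, were found for 134 (0.835%), and 18 of these (0.112%) were called in both organs. The same direction with both organs called but unequal sizes was found for 10 (0.0623%). The remaining 124 (0.772%) could not be sorted. The opposite class shared 6 probe sets with the root-only class and 2 with the shoot-only class.

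Most strong root rises had little counterpart in shoots. Of 195 probe sets that rose at least 4-fold in roots, 177 differed between organs, 109 were root-only, 8 also rose in shoots and 3 fell there, and their median shoot change was 0.059. In all, 64 probe sets were called in both organs, which is 6.98% of the 917 called in roots (5.71% of those tested, with 3.35% rising and 2.37% falling) and 21.4% of the 299 called in shoots (1.86%, with 1.07% rising and 0.797% falling). Of these 64, 46 moved the same way and 18 moved opposite ways. Across all 16053 probe sets the root and shoot changes had a Pearson correlation of 0.0934 and a Spearman correlation of 0.0388, given as a description of probe sets that share arrays and their noise.

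Sulfur genes gave some of the clearest differences between organs. Only 3 of 20 listed genes of sulfate assimilation and cysteine synthesis and 2 of 8 listed sulfur-deficiency markers could be named on the array, and no listed sulfate transporter. Of these 5 genes, 4 differed between organs, beside 3.70% of all probe sets tested, and APS3, APS4 and AT1G04770 each did something different in roots and in shoots.

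APS3 and APS4 encode isoforms of ATP sulfurylase, which starts the assimilation of both anions. The APS3 signal went from 164.4 and 156 to 897 and 997 in roots, and from 1167 and 1115 to 789 and 775 in shoots. It was thus several times lower in control roots than in any other group, and the root and shoot groups moved opposite ways without overlap of replicates. The root change was 2.39 ± 0.15 (log2, SE, n = 2 arrays per group) and the shoot change -0.53 ± 0.15, and the latter was not called (limma adjusted p = 0.129). The difference was -2.92 ± 0.21 (limma adjusted p = 0.000134).

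APS4 did the reverse in roots. Its signal was 4941 and 4663 in control roots and 1166 and 1191 in selenate roots, against 838 and 669 in control shoots and 616 and 742 in selenate shoots. The root groups were far apart and the shoot groups overlapped. The fall of 4.01-fold in roots stood against a shoot change of -0.14, with a 95% interval from -0.52 to 0.24, and the difference was 1.86 ± 0.24 (limma adjusted p = 0.00276). SIR, the single sulfite reductase, had a difference of -0.16 (limma adjusted p = 0.842), with changes of 0.32 in roots and 0.16 in shoots.

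AT1G04770, listed among the sulfur-deficiency markers, was called in both organs in opposite directions. It went from 744.5 and 657 in control roots to 1748 and 1622 in selenate roots, and from 1091 and 1317 in control shoots down to 643 and 536 in selenate shoots. Every selenate root array lay above every control root array, and every selenate shoot array below every control shoot array. The rise was 2.36-fold in roots and the fall 2.00-fold in shoots, a difference of -2.24 ± 0.24 (limma adjusted p = 0.00103).

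BGLU28, a beta-glucosidase gene on the list of sulfur-deficiency markers, rose in both organs by unequal amounts. Its signal rose from 21.4 and 42.1 to 8236 and 6952 in roots, and from 69.1 and 74.2 to 427 and 317 in shoots. The change was 7.09 in roots and 2.03 in shoots (log2), and the difference of -5.06 ± 0.32 was called (limma adjusted p = 7.40e-05). With a pseudocount of 100 the difference was -4.42. It was 1 of the 10 probe sets that moved the same way with both organs called; 7 of these 10 changed more in roots, and all 10 rose. The calls of APS3, APS4, AT1G04770 and BGLU28 held whichever array was left out (limma, highest adjusted p 0.0277).

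**Figure D2:**
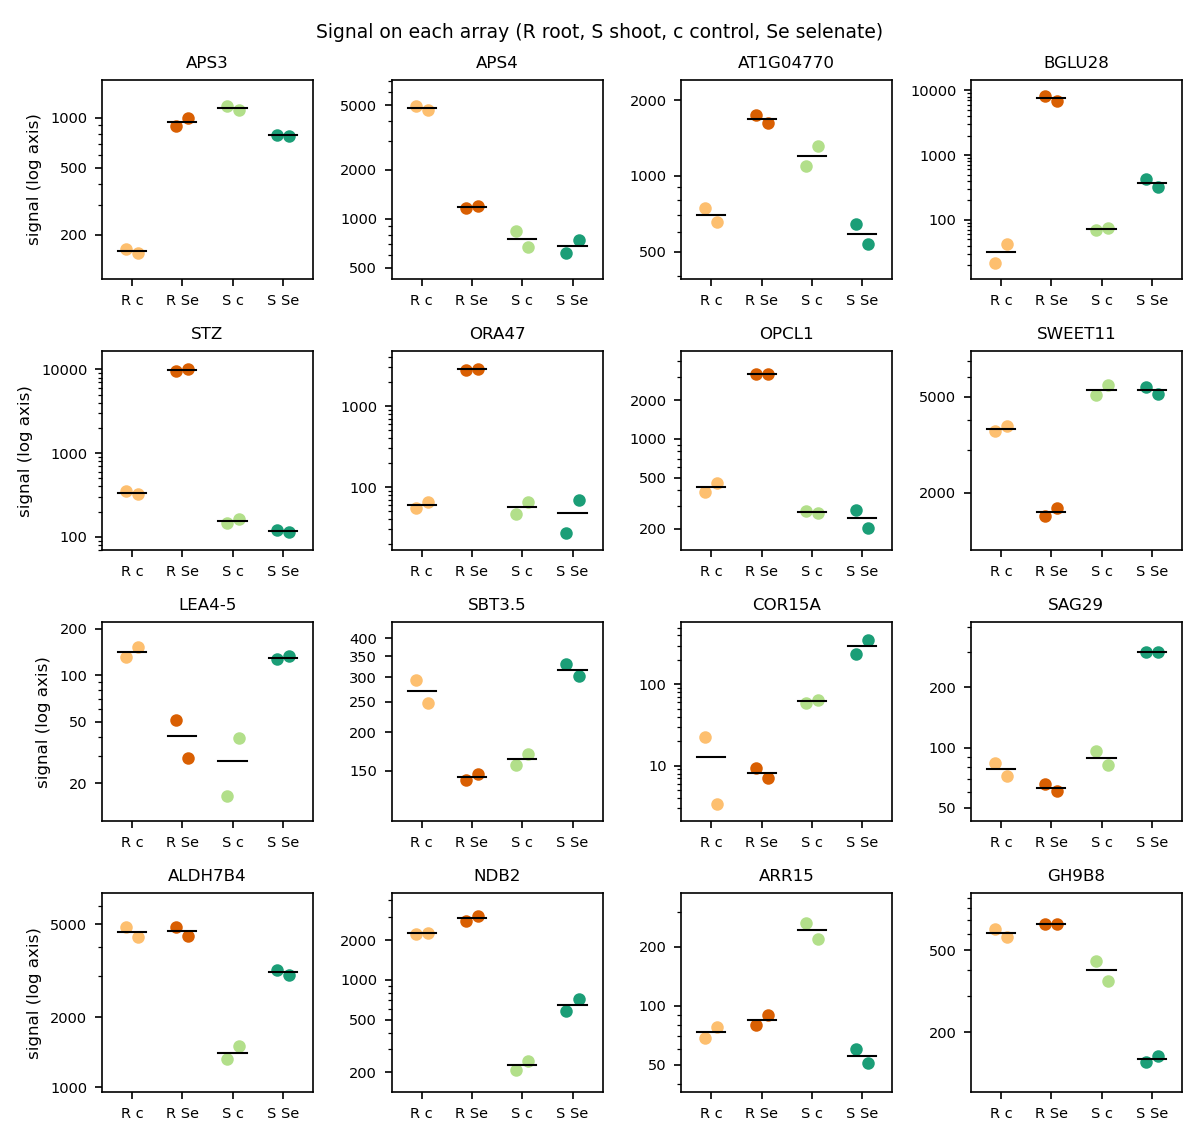
Signal on each of the 8 arrays for 16 genes, on a log axis whose range differs between panels. Points are arrays, 2 per group, and bars are group means; in the APS3 panel control roots lie lowest, and in the AT1G04770 panel the organs move opposite ways.

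Rapid-response genes rose in roots and had no matching rise in shoots. All 7 tested members of the list of touch, wound and stress genes differed between organs, each with the lower change in shoots, against a background of 3.70% of probe sets. All 7 rose in roots and none was called in shoots. The list, like the other gene lists used here, was written with earlier results of these data known. Its share of calls is thus a description and no independent support. CML37, on this list, reached the filter's signal of 100 only through selenate roots, where it is high, as did ORA47 and EXLA3 outside it. The median change of the list was 3.4 in roots and -0.17 in shoots, beside -0.021 and -0.016 over all probe sets tested.

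STZ, a zinc finger repressor of stress signalling, had a signal of 349.6 and 323 in control roots and 9522 and 10160 in selenate roots. In shoots it stood at 144.4 and 161 without selenate and 121 and 113 with it. Selenate roots were thus far above every other array, and selenate shoots were slightly lower than control shoots. The difference was -5.10 ± 0.22 (limma adjusted p = 3.12e-05).

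ORA47, an AP2/ERF transcription factor that activates jasmonate synthesis genes, had the largest difference among genes with a symbol, -5.29 ± 0.40 (limma adjusted p = 0.000139). Its signal went from 54.4 and 64.6 to 2804 and 2906 in roots, while shoots had 46.4 and 66.3 without selenate and 27.3 and 69.7 with it, so the shoot groups overlapped. OPCL1, a ligase of jasmonate synthesis, went from 390 and 456 to 3217 and 3205 in roots, while shoots held 273 and 267 without selenate and 283 and 204 with it. The OPCL1 difference was -3.01 ± 0.26 (limma adjusted p = 0.000324). The third jasmonate gene tested, the defensin gene PDF1.2, had changes of -0.10 in roots and -1.80 in shoots and a difference of -1.69 that was not called (limma adjusted p = 0.120).

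Calmodulin-like proteins, which are thought to relay calcium signals, split by member. CML37 and CML38 rose in roots from signals at or below 27.8 to at least 1017, and CML23 from 127 and 135 to 868 and 712. In shoots CML37 stayed between 1.4 and 5.2, CML38 went from 68.0 and 76.2 to 266 and 136, and CML23 from 68.8 and 84.8 to 31.4 and 36.6. None of the 3 shoot changes was called (0.06 for CML37, 1.16 for CML38 and -0.78 for CML23), and the differences were -4.89, -4.12 and -3.16. CML42, CML43 and CML30 had differences between -0.46 and 0.44 that were not called.

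Among ubiquitin ligases of the U-box family the differences went both ways. PUB23 rose from 464 and 478 to 5052 and 5032 in roots, and PUB22 from 460 and 396 to 2135 and 1889. In shoots PUB23 had 122.5 and 116 without selenate and 99.4 and 52.3 with it, and PUB22 had 83.8 and 146 against 126 and 71.9, with overlapping groups for PUB22. Their differences were -3.91 and -2.34. PUB19, a ligase of the same family, had the higher change in shoots, where it rose 10.8-fold, from 87.7 and 18.2 to 839 and 633. In roots it went from 493 and 441 to 840 and 947, a change of 0.90 that was not called (limma adjusted p = 0.287). The PUB19 difference was 2.53 ± 0.53 (limma adjusted p = 0.0325). Among 13 tested U-box and RING genes 3 differed between organs (23.1%, beside 3.70% of all probe sets tested).

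The other root risers with no call in shoots had varied roles. GRX480, a CC-type glutaredoxin, rose from 254 and 200.5 to 3674 and 3052 in roots and lay between 56.4 and 64.6 on all shoot arrays, with a difference of -3.73 ± 0.27 (limma adjusted p = 0.000132). AR781 rose from 290.1 and 261 to 3836 and 3996 in roots, and its shoot signals were between 63.8 and 110. EXLA3, an expansin-like cell wall protein, rose from 42.6 and 38.2 to 456 and 444, with shoot signals of at most 50.7. The transcription factors WRKY53 and WRKY22 rose 7.05-fold and 3.76-fold in roots, with shoot changes of -0.36 and 0.17, while WRKY20, WRKY47 and WRKY6 had differences between -0.11 and 0.19.

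Single heat-shock and defensin genes also rose in roots. AT2G29500, a small heat-shock protein gene, rose 2.79-fold in roots, from 328 and 322 to 947.5 and 955, while shoots went from 139.5 and 106.5 to 85.6 and 76.0. Its difference was -1.96 (limma adjusted p = 0.00316). The heat-shock genes AT1G53540 and AT5G51440 also rose in roots, with differences of -1.84 and -0.67 that were not called. PDF2.1, a defensin gene, rose 3.23-fold in roots and had signals far under 100 on every shoot array, where the interval of its shoot change ran from -0.82 to 0.35.

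Of the 15 root risers named in this group, 12 kept the call of a difference with each array left out. PDF2.1 lost it without root control 1 (limma adjusted p = 0.104), root control 2 (0.112), root selenate 1 (0.133), root selenate 2 (0.0914) or shoot selenate 2 (0.0634), and with a pseudocount of 5 (0.178). PUB22 lost it without root control 2 (limma adjusted p = 0.0618), root selenate 1 (0.0723) or root selenate 2 (0.0559), and WRKY22 without root selenate 2 (0.0527). PUB19 lost it without any 1 root array (limma adjusted p 0.119 to 0.154), without shoot selenate 1 (0.112) or shoot selenate 2 (0.0614) and with a pseudocount of 5 (0.0739), and its difference was 3.23 without shoot control 1, 1.84 without shoot control 2, 1.67 with a pseudocount of 100 and 1.65 without the 2 shoot arrays of highest GAPDH ratio. With a pseudocount of 100 the differences were -4.30 for ORA47, -3.35 for CML37, -3.26 for CML38, -2.34 for CML23, -2.46 for WRKY53 and -2.14 for EXLA3; with one of 5 they were -6.10 for CML37 and -3.88 for EXLA3, and without the 2 shoot arrays of highest GAPDH ratio that of ORA47 was -4.69.

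**Figure D3:**
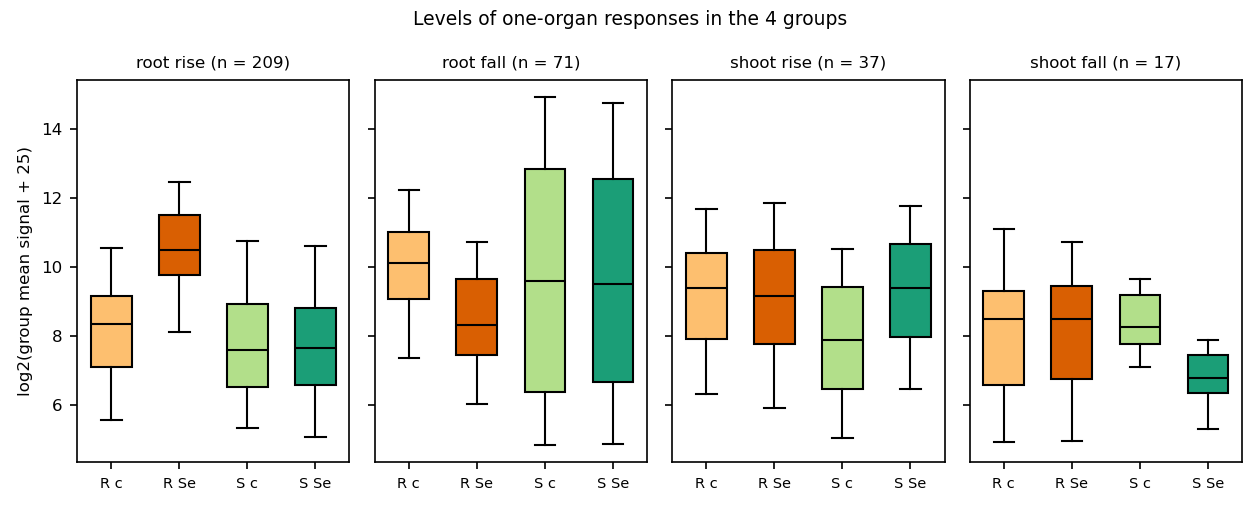
Levels of the root-only and shoot-only responses in the 4 groups (R root, S shoot, c control, Se selenate), as log2 of the group mean signal plus 25. Boxes show the quartiles and median over probe sets and whiskers the 5th and 95th percentiles; the classes were chosen on these values, so the picture describes them and tests nothing.

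As a class, the 209 root-only rises had a median signal of 298 without and 1420 with selenate in roots, against 167 and 175 in shoots. For 57 of them no shoot array reached a signal of 100, so the interval of the shoot change there describes values near the lower end of the scale. In 150 at least 1 array of each organ reached 100. Both control shoot arrays were above both selenate root arrays for 9 of the 209. Outside this class, the largest negative differences of all, -6.54 and -6.26, belonged to probe sets with no listed gene, chosen after their values were seen. Their mean root signals with selenate were 6085 and 1948, and no shoot array exceeded 29.5. Leaving out arrays moved the number of root-only responses from 280 to 148 or 152 when the first or second root control array was dropped, to 157 or 133 for the first or second root selenate array and to 173 for shoot selenate 1, and 127 of the 280 kept the call of a difference each time.

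Fewer genes fell in roots with no call in shoots. OCT1, an organic cation and carnitine transporter gene, fell from 493 and 367 to 78.8 and 102 in roots and had signals of at most 6.5 on every shoot array. SWEET11, which exports sucrose toward the phloem, fell by 1.13 on the log2 scale in roots, from 3587 and 3761 to 1597 and 1724, and stood between 5064 and 5574 on all 4 shoot arrays. Here the shoot change was 0.00 with a 95% interval from -0.32 to 0.31, and the difference was 1.13 ± 0.20 (limma adjusted p = 0.0138).

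HIS1-3, a drought-inducible linker histone, fell 2.44-fold in roots, from 809 and 728 to 275 and 327, with a shoot change of 0.34. AAH, the allantoate amidohydrolase of ureide breakdown, fell by 1.07 on the log2 scale, from 1570 and 1494 to 718 and 712, with a shoot change of 0.15. GT2, a trihelix transcription factor, fell 2.25-fold with a shoot change of 0.12, and CYP71B34, a cytochrome P450, fell 1.89-fold with one of 0.42, which leaves it short of the 2-fold rule for root-only falls. The differences of these 4 genes lay between 1.22 and 1.63. Each of the 4 had selenate root arrays wholly below control root arrays, which describes genes chosen for called differences and is no separate support.

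LHCB4.2, of the light-harvesting antenna, fell from 145.8 and 146.5 to 20.7 and 26.7 in roots, whereas shoots had 17790 and 15860 without selenate and 13060 and 14210 with it. The root change was -1.82 and the shoot change -0.30, a difference of 1.51 ± 0.21 (limma adjusted p = 0.00478), which was 0.69 with a pseudocount of 100 and not called (0.0941), and 2.1 with one of 5. It was the only 1 of 7 nuclear photosystem and antenna genes with a called difference (14.3%, beside 3.70% of all probe sets tested), although all 7 had positive differences and 4 fell in roots (beside 2.37% of all). On the root arrays the summed green-tissue markers were 2827 and 2329 in controls and 1629 and 1505 with selenate, and their part in this result was not tested. That sum includes LHCB4.2, and its largest member, LHCB4.1, went from 1219 and 956 to 726.5 and 595 in roots. Of the other markers, PSAE-1 went from 334 and 277 to 124 and 166 in roots, and PSAN from 519 and 370 to 257 and 189. PRK went from 117 and 139 to 82.8 and 80.5 there, and CaS from 81.8 and 76.5 to 62.2 and 74.7. SBPASE, of the Calvin cycle, had root signals of 181 and 142 without selenate and 156 and 154 with it. HPR, of photorespiration, had 229.5 and 221 against 199.6 and 219.6. In bulk tissue, fewer cells of a type and less RNA per cell cannot be told apart.

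Of these 7 falls only that of LHCB4.2 kept the call of a difference with each array left out. SWEET11, AAH, GT2, CYP71B34 and OCT1 lost it without any 1 root array, and HIS1-3 without any but root selenate 2. The adjusted p (limma) of the calls lost was 0.0791 to 0.162 and 0.0517 to 0.169 for the first and second root control array, and 0.0652 to 0.157 and 0.0585 to 0.198 for the first and second root selenate array. SWEET11, GT2 and CYP71B34 lost it without shoot selenate 1 (0.0578 to 0.120) and AAH without shoot selenate 2 (0.0618), and OCT1 with a pseudocount of 5 (0.0849). The 71 root-only falls had a median signal of 1084 in control roots and 293 in selenate roots, against 753.5 in control and 696 in selenate shoots. The signal was higher in control shoots than in control roots for 30 of the 71, and no shoot array reached 100 for 19. The largest positive difference of all, 4.04, was that of AT1G67870, a locus with no symbol chosen after its values were seen. It fell from 2162 and 2076 to 84.8 and 79.4 in roots and had 3278 and 2938 without and 2582 and 2493 with selenate in shoots.

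Shoots alone raised genes of cold, drought and abscisate responses. In that list 5 of 6 tested members differed between organs, all with the higher change in shoots, against a background of 1.42% in this direction. COR15A and SAG29 reached the filter's signal of 100 only through selenate shoots, where they are high, so their differing is no independent support. The members called were COR15A, SAG29, COR47, LEA4-5 and HIS1-3, and LTI30 had a difference of 0.27 that was not called. In shoots COR15A, SAG29, COR47 and LEA4-5 rose, and in roots none rose and 2 fell. The median change of the list was -0.33 in roots and 1.1 in shoots.

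SAG29, a sugar transporter of the SWEET family linked to senescence, had signals of 96.0 and 82.1 in control shoots and 300 and 298 in selenate shoots. Its root signals were 83.8 and 72.3 without selenate and 65.6 and 60.3 with it, so that selenate shoots lay far above every other array. The difference was 1.74 ± 0.29 (limma adjusted p = 0.0102). COR15A, a cold-regulated protein of the chloroplast, rose from 59.7 and 64.4 to 234 and 354 in shoots and had signals of at most 22.3 on every root array, with a difference of 1.99 (limma adjusted p = 0.0459). COR47, a dehydrin, rose by 0.68 in shoots with a root change of -0.23, and its difference of 0.91 was called (limma adjusted p = 0.0383).

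ALDH7B4, a stress-related aldehyde dehydrogenase, showed a shoot rise against a flat root level. Its shoot signals went from 1321 and 1499 to 3192 and 3034, and its root signals were 4862 and 4404 without selenate and 4887 and 4464 with it. The root change was 0.01 with a 95% interval from -0.32 to 0.34, and the difference was 1.12 ± 0.21 (limma adjusted p = 0.0179). Selenate shoots thus came closer to the root level without reaching it.

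NDB2, an alternative NADH dehydrogenase of mitochondria, rose 2.67-fold in shoots, from 210 and 243 to 578 and 716, while roots went from 2237 and 2264 to 2807 and 3033. The root change was 0.37 (95% interval 0.00 to 0.74) and the difference 1.04 (limma adjusted p = 0.0425; 0.0615 with a pseudocount of 100, 0.83 in size). The related mitochondrial stress genes AT5G09570 and AT2G21640 had differences of 0.96 and 0.72 that were not called (limma adjusted p = 0.0799 and 0.661). OCT5, another organic cation transporter gene, rose 2.01-fold in shoots with a root change of -0.32.

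Among 34 UDP-glycosyltransferase probe sets 2 differed, which is 5.88% against 3.70% over all probe sets. UGT73C1 rose in shoots from 15.5 and 20.5 to 142 and 128, and its root signals were at most 6.4. It passed the signal filter only through selenate shoots, where it is high. Its differing, which is part of the share of this list, is thus no independent support. UGT84A3, which glucosylates hydroxycinnamates, rose 2.48-fold in shoots from 225 and 120.0 to 466 and 428, with a root change of -0.44. BGLU44, a beta-glucosidase gene, had a difference of 1.19 (limma adjusted p = 0.0286) although neither its shoot change of 0.74 nor its root change of -0.45 was called.

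Falls confined to shoots included ARR15 and GH9B8. ARR15, a response regulator that damps cytokinin signalling, fell from 266 and 219 to 60.1 and 50.9 in shoots, while roots had 68.8 and 77.6 without selenate and 79.4 and 89.9 with it. Its difference was -1.89 ± 0.30 (limma adjusted p = 0.00891). GH9B8, an endoglucanase of the cell wall, fell from 444 and 355 to 143 and 153 in shoots, with root signals between 583 and 673 on all 4 arrays and a difference of -1.42 (limma adjusted p = 0.0119). The defensin gene PDF1.2b fell from 658.5 and 314 to 49.4 and 46.9 in shoots and had root signals of at most 61.1, on a probe set that can bind transcripts of several genes; its difference was -3.10 (limma adjusted p = 0.0179).

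The shoot calls depended on single arrays. None of the 9 genes with the higher change in shoots (PUB19 and BGLU44 included) and none of the 3 falls kept the call of a difference with each array left out. All 9 lost it without root control 1 (limma adjusted p 0.0738 to 0.199) or root selenate 2 (0.0641 to 0.189), 7 without root control 2 (0.0812 to 0.197; all but SAG29 and COR15A) and 8 without root selenate 1 (0.0818 to 0.193), shoot selenate 1 (0.0513 to 0.126) or shoot selenate 2 (0.0504 to 0.139), SAG29 being the exception. COR15A and UGT73C1 lost it without shoot control 1 (limma adjusted p 0.0619 and 0.0627). Among the falls, all 3 lost it without root control 1 (limma adjusted p 0.0649 to 0.0929) or root selenate 2 (0.0641 to 0.105), GH9B8 without root control 2 (0.0849) or root selenate 1 (0.0746), and PDF1.2b without shoot selenate 1 (0.0563) or shoot selenate 2 (0.0562). With a pseudocount of 5 the calls of COR15A (limma adjusted p = 0.229), UGT73C1 (0.292) and UGT84A3 (0.0574) ended and the difference of PDF1.2b was -3.72. With one of 100 the differences were 1.32 for COR15A, 0.97 for UGT73C1, -1.23 for ARR15 and -2.08 for PDF1.2b. Without the 2 shoot arrays of highest GAPDH ratio UGT73C1 was not called (limma adjusted p = 0.0571).

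The number of shoot-only responses moved widely with the arrays used. The 54 became 2 or 5 when the first or second root control array was dropped, 8 or 4 for the first or second root selenate array and 10 or 21 for the first or second shoot selenate array, but 112 or 180 for the first or second shoot control array. With each organ fitted on its own 4 arrays limma called 0 probe sets in shoots, against 1318 with an unadjusted p under 0.05, so that no response could be counted as shoot-only. The 37 shoot-only rises had a median signal of 210 in control shoots and 647 in selenate shoots, against 646 in control and 543 in selenate roots.

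Genes moving opposite ways differed in how strong their signals were. LEA4-5, a late embryogenesis abundant protein of drying tissue, went from 132 and 151 to 51.2 and 29.3 in roots, and from 16.5 and 39.5 to 126 and 134 in shoots. The groups of each organ did not overlap, and the selenate and control levels were nearly exchanged between organs. The root change was -1.37 (limma adjusted p = 0.0228), the shoot change 1.58 (0.0298) and the difference 2.95 ± 0.41 (0.00423). Its lower signals lay near the pseudocount of 25, and the difference was 1.64 with a pseudocount of 100 and 3.86 with one of 5.

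SBT3.5, a subtilase, fell from 293 and 248 to 140.4 and 146 in roots and rose from 157 and 169.5 to 331.5 and 301 in shoots. Both changes were called, that in shoots narrowly (limma adjusted p = 0.04996), and the difference was 1.67 ± 0.25 (limma adjusted p = 0.00654). SIS, a salt-induced serine-rich protein by its RefSeq name, fell from 784.5 and 655 to 391 and 344 in roots and went from 708 and 496 to 1131 and 1184 in shoots, with a shoot change of 0.94 that was not called (limma adjusted p = 0.0532). EULS3, a lectin, had changes of -0.53 in roots and 0.55 in shoots, neither called, and a called difference of 1.07 (limma adjusted p = 0.0349).

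The 18 probe sets called in both organs in opposite directions comprised 11 that fell in roots and rose in shoots and 7 that did the reverse. Only 5 of them matched 1 gene, namely LEA4-5, SBT3.5, AT5G43150, AT1G21680 and AT1G04770; AT5G43150 and AT1G21680 were chosen after their values were seen. AT5G43150 fell from 2472 and 2415 to 1156 and 1200 in roots and rose from 1022 and 960.0 to 2216 and 2303 in shoots. AT1G21680 fell from 1068 and 1144 to 684 and 621 in roots and rose from 1429 and 1392 to 2391 and 2329 in shoots. Among probe sets with no listed gene, the largest positive difference was 3.52, for 1 that fell from 352 to 80.8 in roots and rose from 72.2 to 286 in shoots (means of 2 arrays). In 14 of the 18 at least 1 array of each organ reached a signal of 100. Being called in both organs depended on the fit. With each organ fitted on its own 4 arrays, limma called 0 probe sets in shoots and thus 0 in both organs in opposite directions. A replicate block within each organ also left 0.

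Some opposite movements rested on low signals. EXPA7, an expansin of root hairs, fell from 533 and 459.5 to 196 and 220.5 in roots, while its shoot signals were only 16.4 and 8.3 without selenate and 32.0 and 38.7 with it. The summed root markers were 5847 and 9477 on control shoot arrays and 6794 and 5713 on selenate shoot arrays, and their part in this result was not tested. That sum includes EXPA7 and is nearly all PYK10, a root beta-glucosidase. EXPA18, the other root-hair expansin among the markers, had root signals of 735 and 603.5 without selenate and 262 and 234.5 with it, and its difference of 1.05 was not called (limma adjusted p = 0.522). XTH20, a xyloglucan-remodelling enzyme, rose 2.02-fold in roots, and XTH18, of the same family, had a root change of 0.98 that was not called (limma adjusted p = 0.0523), and their shoot signals were at most 84.4. PAP85, a cupin family protein, rose from 30.6 and 34.7 to 159 and 202 in roots and went from 39.6 and 73.3 to 12.9 and 1.6 in shoots. LCR67, also known as PDF1.1, a defensin, rose from 2.9 and 22.3 to 178 and 132 in roots, with shoot signals of at most 44.8. In these 5 genes no shoot array reached a signal of 100. None of their shoot changes was called (limma adjusted p from 0.0709 for PAP85 to 0.466 for LCR67). XTH18 was thus called in neither organ. The opposite movement of these 5 genes in shoots rests on the sign and size of the change and was not shown by the test. PAP85 and LCR67 reached the filter's signal of 100 only through selenate roots, where they are high, so their differing is no independent support.

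Over the class, 43 of 134 had no shoot array and 5 no root array at a signal of 100, which leaves 86. The class rested on calls in roots alone for 69, in shoots alone for 16 and in neither organ for 31. Of the 9 genes named above other than AT5G43150, AT1G21680 and AT1G04770, LEA4-5 and PAP85 kept the call of a difference with each array left out. XTH18, XTH20, EXPA7 and EULS3 lost it without any 1 root array, LCR67 without any but root control 2, SIS without root control 1 or root selenate 2 and SBT3.5 without root control 1. The adjusted p (limma) of the calls lost was 0.0516 to 0.232 and 0.0604 to 0.138 for the first and second root control array, and 0.0786 to 0.159 and 0.0542 to 0.234 for the first and second root selenate array. XTH18 also lost it without shoot selenate 1 (0.0798), and XTH20, XTH18, LCR67 and EULS3 without shoot selenate 2 (0.0510 to 0.129). The number of opposite responses fell to 66, 71, 81 and 66 without root control 1, root control 2, root selenate 1 and root selenate 2, and was 202 and 223 without shoot control 1 and shoot control 2. With a pseudocount of 5 the differences were 2.48 for EXPA7, -4.74 for PAP85 and -4.86 for LCR67, and XTH18 (limma adjusted p = 0.0739) and LCR67 (0.0681) were not called; with one of 100 they were 1.22, -1.62 and -1.44.

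Organelle genes gave no called difference. Among 18 tested probe sets of mitochondrially encoded genes, 6 rose in shoots, beside 1.07% of all probe sets tested, and 2 in roots, beside 3.35%, with medians of 1.0 and 0.68, and 0 differed between organs by limma (differences from -0.57 to 0.85). For the 69 plastid-encoded probe sets the medians were 0.20 in roots and 0.081 in shoots, with 1 fall in roots, and 0 called differences from -0.79 to 1.26. A missed call does not show that the organs acted alike: the median 95% interval of a difference over all probe sets was 0.687 to each side.

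Several other lists held no called difference, where 3.70% of all probe sets tested were called. Glutathione transferases had 0 of 13, auxin genes 0 of 4, bZIP factors 0 of 5 and glucosinolate genes 0 of 3, by limma. BCAT4, of methionine chain elongation in glucosinolate synthesis, fell in both organs, from 2388 to 1135 in roots and from 7427 to 2676 in shoots (means of 2 arrays), with a difference of -0.41 (limma adjusted p = 0.458). RING1, a RING finger gene, rose in both, by 2.40 in roots and 1.41 in shoots, with a difference of -0.99 that was not called (limma adjusted p = 0.0711). Expansins and xyloglucan enzymes had 5 called differences of 24 (20.8%, beside 3.70% of all probe sets tested), 1 with the higher change in shoots and 4 with the lower (beside 1.42% and 2.28%). EXLA3, 1 of the 5, passed the signal filter only through selenate roots, where it is high. Its differing, which is part of this share, is thus no independent support.

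**Figure D4:**
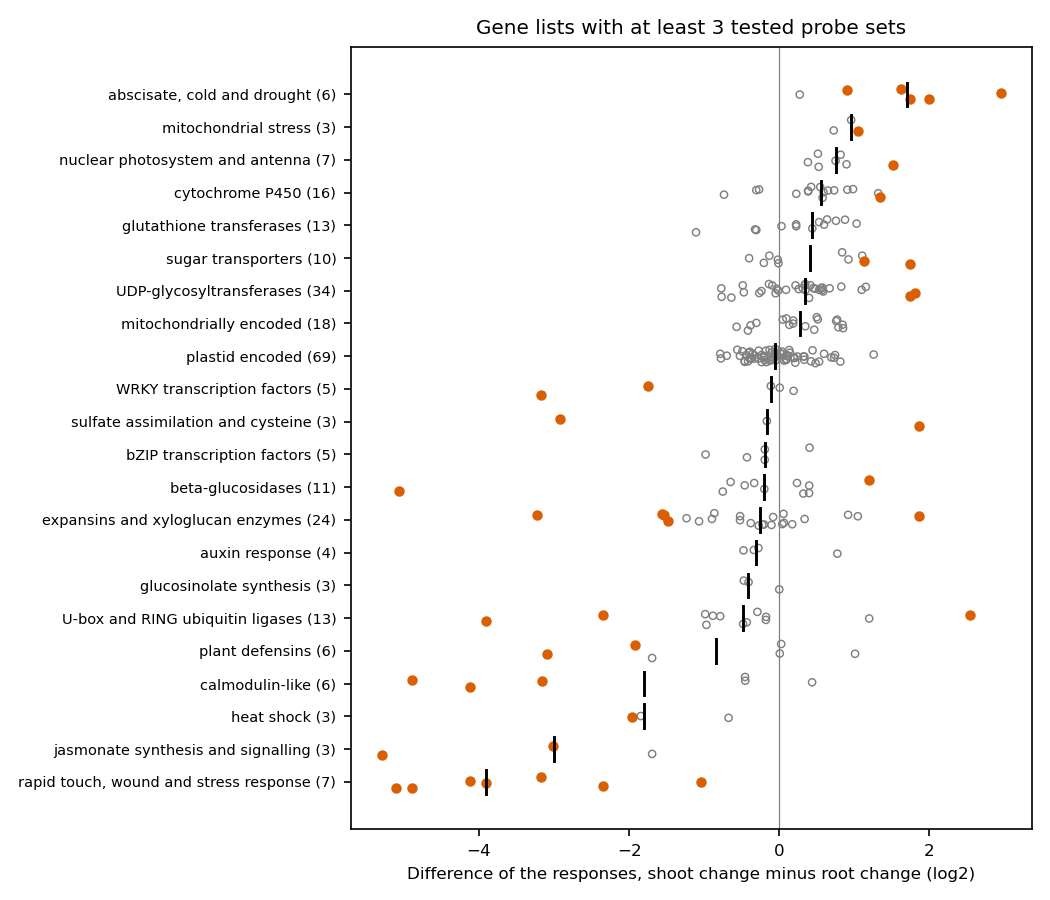
Difference between organs (shoot change minus root change, log2) for every tested probe set of the gene lists with at least 3 tested, with the number tested in parentheses. Filled points are called differences, open points are not, and black bars are list medians; all 7 rapid-response probe sets lie below 0 and all 6 of the abscisate, cold and drought list above it.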

How the data were processed

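Array signals were measured in 8 samples and are an intensity on a linear scale that the authors deposited; the submitters' processing notes name MAS5. In the deposited table the mean signal of an array, trimmed by 2% at each end, was 500.04 on average over the 8 arrays. Each array was summarised by itself, and relative errors are large at low signals. Detection calls were not used here. A pseudocount of 25, 5% of that mean, was added before log2. The test was limma (version 3.58.1, R 4.3.3) with 1 mean per group and a variance trend (4 residual and 5.12 prior degrees of freedom), with 1 spread for all groups and Benjamini-Hochberg adjustment over 16053 probe sets. That shared spread lies between the smaller one of root replicates and the larger one of shoot replicates. Of the tested probe sets, 342 reached a signal of 100 through 1 group only, and 69 of the 594 calls are among them, 57 through selenate roots.

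Probe sets were named by GEO's platform annotation with symbols brought up to date through RefSeq (TAIR10.1): 13513 probe sets match 1 gene, 503 several and 8730 none listed. Coordinates are left out because no source used here states the probe sets' genome build. The contrast, classes and 32 gene lists were chosen with earlier results of these data known. Patterns for mitochondrial and plastid genes were adjusted to the identifiers in the table. Named genes are the 10 largest differences each way with a symbol, up to 6 per class and direction and up to 4 called members per list. TET8 was not named by it, and COR47, PDF1.2, SIR, BCAT4, RING1 and uncalled list members were added to show whole lists. The procedure was also run on simulated data that had the same spread in all groups. That run does not cover the larger spread of shoot replicates here.

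Replicate numbers of the titles do not say what they share. The alternatives were other pseudocounts, filters, scalings, variance models, replicate blocks and sets of arrays.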

Additional observations from a re-analysis of the deposited data

Results flagged for a closer look

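All results here carry the same mark, a called difference between the responses of roots and shoots to the same treatment (limma, adjusted p under 0.05), which 594 probe sets had. The values are shoot change minus root change on the log2 scale, from 2 arrays per group. The groups of 2 arrays are too small to look for single arrays far from the rest.

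Among sulfur genes the differences were -5.06 for BGLU28, -2.92 for APS3, -2.24 for AT1G04770 and 1.86 for APS4. Root risers had -5.29 for ORA47, -5.10 for STZ, -4.89 for CML37, -4.12 for CML38, -4.07 for AR781, -3.91 for PUB23 and -3.73 for GRX480. They were followed by -3.23 for EXLA3, -3.17 for WRKY53, -3.16 for CML23, -3.01 for OPCL1, -2.34 for PUB22, -1.96 for AT2G29500, -1.92 for PDF2.1 and -1.74 for WRKY22.

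Genes that fell mainly in roots had 2.06 for OCT1, 1.63 for HIS1-3, 1.51 for LHCB4.2, 1.34 for CYP71B34, 1.29 for GT2, 1.22 for AAH and 1.13 for SWEET11. Genes with the higher change mainly from shoots, or from both organs in BGLU44, had 2.53 for PUB19, 1.99 for COR15A, 1.80 for UGT73C1, 1.75 for UGT84A3, 1.74 for SAG29, 1.32 for OCT5, 1.19 for BGLU44, 1.12 for ALDH7B4 and 1.04 for NDB2. Those that fell mainly in shoots had -3.10 for PDF1.2b, -1.89 for ARR15 and -1.42 for GH9B8.

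Genes with opposite signs had 2.95 for LEA4-5, 1.86 for EXPA7, 1.86 for SIS, 1.67 for SBT3.5, 1.07 for EULS3, -1.53 for XTH18, -1.56 for XTH20, -3.00 for LCR67 and -3.16 for PAP85.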

How the results depend on the processing

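None of the 47 named differences changed sign under any setting, and 19 kept their call with each array left out. With 1 array left out, limma called between 233 and 1017 differences, 133 to 312 root-only, 2 to 180 shoot-only and 66 to 223 opposite responses. A pseudocount of 100 left 61 opposite responses. The stricter filter, which tests fewer probe sets, gave 377 calls, 35 shoot-only and 73 opposite responses, and array weights gave 32 shoot-only responses. Without the 2 shoot arrays of highest GAPDH ratio there were 1358 calls, 220 shoot-only and 240 opposite responses; the lone shoot arrays are then assumed to vary like the root arrays. Counting only probe sets with a signal of 100 in each organ left 86 opposite responses. With each organ fitted alone there were 0 shoot-only responses (limma; 1318 shoot changes had an unadjusted p under 0.05). The cause of these shifts was not tested beyond their construction. Leaving out arrays could not turn the sign of a named difference. For each, the 4 array differences of one organ lay wholly beyond those of the other. Replicate blocks leave the size of a difference unchanged in this balanced design, so unchanged signs in these settings are no support.

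A replicate block over both organs gave 406 calls and 26 shoot-only responses, and a block for shared plants gave 462 and 32. A replicate block within each organ gave 149 calls, 90 root-only, 0 shoot-only and 41 opposite responses (limma; 1917 differences had an unadjusted p under 0.05). It kept 14 of the 47 named calls. Of the 19 that held without each array it ended those of LEA4-5 (limma adjusted p = 0.0513), PAP85 (0.0674), APS4 (0.0695), WRKY53 (0.0747) and LHCB4.2 (0.0784). Deviations of same-numbered arrays correlated at 0.339 between root groups and -0.485 between shoot groups, and between -0.00676 and 0.0612 across organs. The numbers are thus not shown to pair samples across organs or in shoots. Same-numbered root arrays shared part of their deviations, which the main fit leaves out, and the reason was not tested. With the shoot numbers crossed in the block, an alternative chosen after seeing the data, there were 1910 calls, 482 root-only and 152 shoot-only responses. All 594 calls were among the 1910.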
